A study of Arabidopsis thaliana with 4 samples.

Results

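The 9 genes described here encode enzymes that alter pectin in the walls of pollen, and proteins that inhibit them. They were chosen by locus with the measured differences between ago4-1 and wild type already known, several of them being among the largest in the series. Each was represented by the probe set that the platform's annotation pairs with that locus alone. All 9 loci had such a probe set, which makes them 9 of 13286 genes with a probe set of their own. No filter on low signals was applied to them. Below, other genes are said to be measured, or to have a probe set, only where the annotation makes that link. It does not list 8730 of the 22746 probe sets, so a gene without the link may still be on the array. By family they were 3 pectin methylesterase inhibitors (AT1G10770, AT5G50030 and AT4G24640, also called APPB1), 3 pectin methylesterases (AT5G07430, AT5G07420 and AT3G17060), 2 polygalacturonases (AT3G07820 and AT5G48140) and 1 pectate lyase (AT3G01270). Families were assigned from general knowledge of the Arabidopsis genome, since the annotation at hand carries no gene descriptions.

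Pectin is laid down in the wall as homogalacturonan, a polymer of galacturonic acid whose acid groups carry methyl esters. Pectin methylesterases remove those esters, and methylesterase inhibitors bind the enzymes and block them. Polygalacturonases hydrolyse the backbone where it has lost its esters, and pectate lyases cleave it by elimination. In flowering plants the transcripts of many such genes accumulate late in pollen development, and their products act in the wall of the growing pollen tube, where the balance of esterified and free pectin sets how stiff the tip and the shank are.

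The samples were whole Arabidopsis thaliana plants, 5 weeks old, grown in hydroponic culture with 16 h of light a day. The arrays held total RNA of ago4-1 plants (n = 2) and of La-er wild-type plants (n = 2), each called a biological replicate by its title. The protein AGO4 belongs to the Argonautes, is loaded with small interfering RNAs and guides DNA methylation, and ago4-1 is a mutant allele of its gene. The labels do not say how many plants were pooled, which organs each plant carried, or in which line the mutant was kept. RNA was hybridised to Affymetrix ATH1 arrays, on which a probe set, a group of short oligonucleotides, reports the transcript of a gene as a signal on a linear scale with no fixed unit. Probes differ in how well they bind, so signals of different probe sets are not read below as relative amounts of RNA. The sums of signals and the likeness of profiles given below do depend on the level of each probe set.

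The arrays were alike in overall signal, with medians of 151.0 and 164.0 on the ago4-1 arrays and 162.1 and 165.1 on the wild-type arrays. Across the 15922 probe sets with a mean log2 signal at or above the 30th percentile, log2 signals correlated at 0.973 between the ago4-1 arrays, 0.978 between the wild-type arrays and 0.949 to 0.960 between genotypes, a correlation across genes that are not independent replicates. RCA and LHCB4.1, photosynthesis genes of leaves, had signals between 28690 and 31770 on every array. The tapetum gene A9 (AT5G07230), active in young anthers, was at 2250 and 1690 in ago4-1 and at 1044 and 1196 in wild type, so a transcript of anthers was measured in both genotypes.

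Every one of the 9 pollen pectin genes had a higher signal on both ago4-1 arrays than on either wild-type array. Over all probe sets without a filter, 21.7% lay wholly higher in ago4-1 in this way. Because the genes were listed with this comparison in view, that count, the differences below and their sizes are a description and carry no test. Differences are of log2(signal + 16), ago4-1 minus wild type. Adding 16 damps the noise of low signals and understates the change of genes near the floor of the scale. The median difference over the 9 genes was 2.16, and it ran from 0.96 for AT5G48140 to 4.01 for AT1G10770. The median over all 22746 probe sets was -0.03. Of the 9 genes, 8 differed by at least 2-fold on this scale, as did 3.46% of all probe sets in the direction of ago4-1. In RNA of whole plants, a change in the number of pollen grains or flowers and a change in the RNA held by each cannot be told apart.

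**Figure D1:**
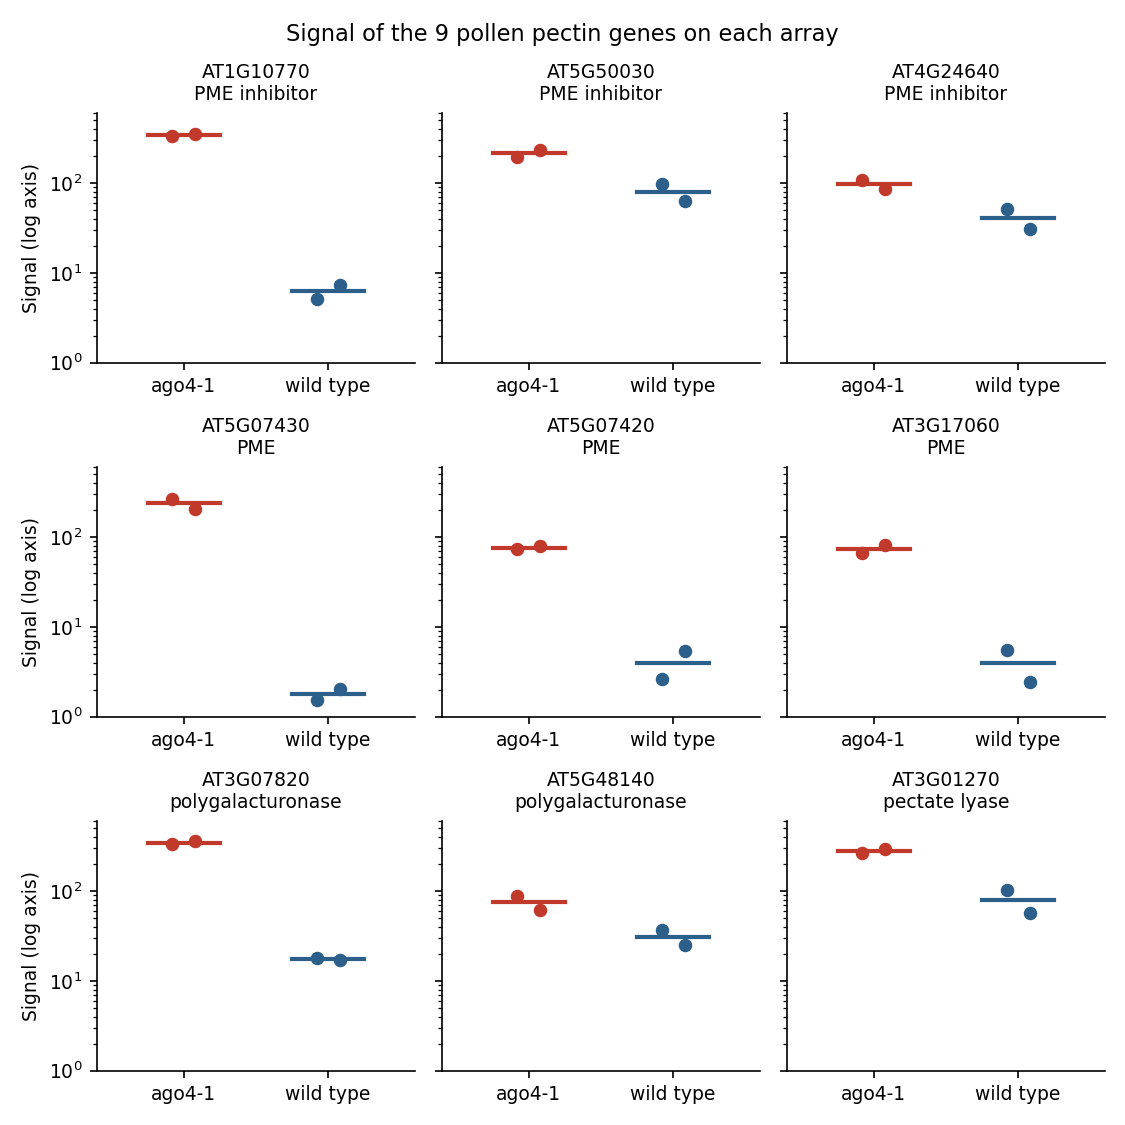
Signal (log axis, arbitrary linear units) of each of the 9 pollen pectin genes, with a point for each array and a bar at the mean of the 2 arrays of a genotype, ago4-1 left of wild type. No ago4-1 point falls as low as a wild-type point in any panel, and AT1G10770, AT5G07430, AT5G07420, AT3G17060 and AT3G07820 have both wild-type points below 20.

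Among the inhibitors, AT1G10770 had signals of 336.7 and 347.1 on the ago4-1 arrays, against 5.14 and 7.31 on the wild-type arrays. Arrays of a genotype lay close together and the genotypes far apart, with a mean of 342 ± 7.32 in ago4-1 and 6.23 ± 1.53 in wild type (SD, n = 2 each). Its log2 difference of 4.01 was the 4th highest of all probe sets. AT5G50030 was at 193.9 and 232.6 in ago4-1, against 96.1 and 62.2 in wild type, a log2 difference of 1.29. APPB1 was at 108.1 and 84.7 in ago4-1, against 50.8 and 30.5 in wild type, a log2 difference of 1.00. For these 2 inhibitors the genotypes did not overlap, but the wild-type arrays were at 30.5 or more and the pairs of arrays that lay closest differed by 0.91 and 0.59 log2 units. AT1G10770, unlike the other 2 inhibitors, had wild-type signals near the floor of the scale.

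The 3 pollen methylesterases were near the floor of the scale in wild type. Which methylesterases the inhibitors above act on was not tested. The methylesterase AT5G07430 had signals of 267.6 and 203.7 in ago4-1, against 1.53 and 2.03 in wild type, a log2 difference of 3.81. AT5G07420 was at 72.5 and 80.0 in ago4-1, against 2.65 and 5.33 in wild type, a log2 difference of 2.21. AT3G17060 was at 65.9 and 80.7 in ago4-1, against 5.52 and 2.43 in wild type, a log2 difference of 2.16. In all 3 the wild-type arrays were below 6 and the ago4-1 arrays were above 65. At such wild-type levels a plain ratio of signals says little, and no detection calls were used. AT5G07430 and AT5G07420 lie close together on chromosome 5, with 1 RefSeq locus between them, and each has a probe set of the plain _at kind, which Affymetrix designed to match a single transcript. Binding of one gene's transcript to the other's probes was not tested, because no probe sequences were used here.

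Of the enzymes that cut the backbone, the polygalacturonase AT3G07820 had the tightest replicates, at 330.4 and 358.9 in ago4-1, against 17.8 and 17.0 in wild type. Its log2 difference was 3.43, and the pairs of arrays between genotypes ranged only from 3.35 to 3.51. The other polygalacturonase, AT5G48140, was at 88.5 and 61.8 in ago4-1, against 36.3 and 25.2 in wild type. Its log2 difference of 0.96 was the smallest of the 9, with pairs of arrays from 0.57 to 1.34. The pectate lyase AT3G01270 was at 262.3 and 290.5 in ago4-1, against 103.5 and 56.4 in wild type, a log2 difference of 1.65. The wild-type arrays of this gene were 1.84-fold apart, yet the higher of them was well below either ago4-1 array.

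The 9 genes fell into a group of 5 with both wild-type signals under 20 and a group of 4 with wild-type signals from 25.2 to 103.5, a split made after the values were seen. In the first group, AT1G10770, AT5G07430, AT5G07420, AT3G17060 and AT3G07820, ago4-1 was 4.47 to 16.1-fold higher on the signal + 16 scale. In the second, AT5G50030, APPB1, AT5G48140 and AT3G01270, it was 1.94 to 3.14-fold higher on that scale, and 2.37 to 3.46-fold higher as a plain ratio of mean signals. Wild-type signal is itself a term of each difference, so a larger fold in the first group is partly built into the split. The split did not follow the families, since inhibitors and polygalacturonases stood on each side of it. The methylesterases were all in the first group, and the pectate lyase was in the second.

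Spread between replicates also differed within the set. The ago4-1 arrays were within 1.43-fold of each other for each of the 9 genes, with replicate 1 higher for 3 genes. The wild-type arrays were up to 2.27-fold apart, the largest gap being that of AT3G17060, at signals of 5.52 and 2.43. For the 4 genes with wild-type signals above 20, replicate 1 was the higher wild-type array each time, by 1.44 to 1.84-fold, while the median log2 difference between these arrays over all probe sets was 0.01. The sum of the 9 signals was 1726 and 1740 on the ago4-1 arrays, against 319.3 and 208.4 on the wild-type arrays.

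**Figure D2:**
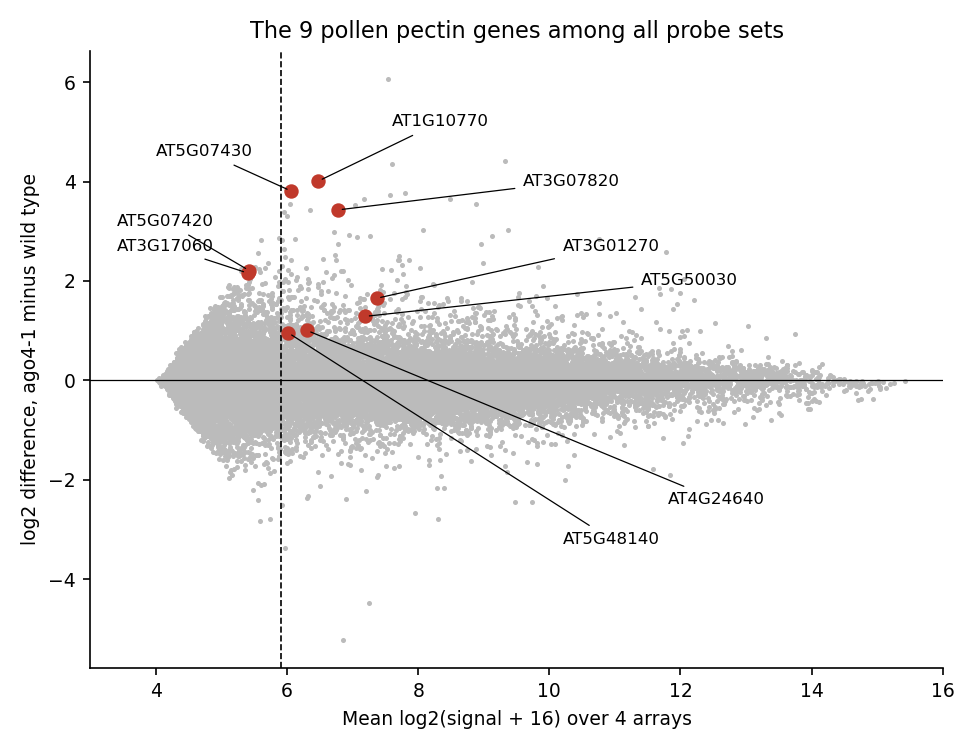
Each grey point is 1 of the 22746 probe sets, placed by its mean log2(signal + 16) over the 4 arrays and by its log2 difference, ago4-1 minus wild type; red points are the 9 pollen pectin genes, and the dashed line is the limit on low signals used in the test of all genes. AT1G10770, AT5G07430 and AT3G07820 lie far above the cloud, while AT5G48140 (0.96) and AT4G24640 (1.00) lie within its upper part.

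In the test of all genes, which used probe sets with a mean log2 signal of at least 5.91 (a signal of about 44.0), 7 of the 9 genes passed the limit on low signals, and AT5G07420 and AT3G17060 fell short of it. That limit is set on the mean of all 4 arrays, so 5 of these 7, AT1G10770, AT4G24640 (APPB1), AT5G07430, AT3G07820 and AT5G48140, with wild-type means below it, passed only through their ago4-1 signals. They would not have been tested had ago4-1 been as low as wild type, and no result of that test is used for any of the 9. Over all probe sets, 44 of the 341 called higher in ago4-1 passed the limit in the same way.

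The comparison with the rest of the pectin genes asks how other members of the same families, listed by locus and not by how they moved, stood between the genotypes. Outside the 9 genes, the 4 families held 224 listed loci, of which 140 had a probe set of their own and 66 passed the limit on low signals. In the limma fit over all 15922 probe sets, with p-values adjusted by the Benjamini-Hochberg method, 6 of these 66 passed at 0.05, of which 4 rose in ago4-1 and 2 fell. Of all probe sets tested, 4.06% passed, 2.14% higher and 1.92% lower in ago4-1. At an unadjusted p under 0.05 there were 17 of the 66. With no filter, 40 of the 140 loci (28.6%) lay wholly higher in ago4-1 and 28 (20%) wholly lower, against 21.7% and 25.4% of all probe sets. The median log2 difference over the 140 loci was 0.05. The 9 genes, all higher in ago4-1, were left out of these families with their differences known. That can only lower the share wholly higher and the median of what remains.

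All 4 genes that rose were methylesterase inhibitors, out of 16 tested and 33 with a probe set. AT2G47050, an inhibitor-family gene whose transcript is known from pollen, had signals of 421.0 and 371.3 in ago4-1, against 87.3 and 82.7 in wild type, with a log2 difference of 2.03 (SE 0.21, limma adjusted p = 0.00197). AT4G02250 was at 178.6 and 133.4 in ago4-1, against 30.4 and 35.9 in wild type, with a log2 difference of 1.80 (SE 0.32, limma adjusted p = 0.0213). AT1G70720 was at 125.8 and 165.7 in ago4-1, against 50.1 and 29.98 in wild type, with a log2 difference of 1.54 (limma adjusted p = 0.0418). AT2G01610 was at 925.3 and 726.2 in ago4-1, against 388.5 and 395.4 in wild type, with a log2 difference of 1.03 (limma adjusted p = 0.0178). In none of these did the genotypes overlap. AT4G02250 and AT1G70720 had wild-type means below the limit on low signals and entered the test only through ago4-1, while AT2G47050 and AT2G01610 were above it in both genotypes. The call of AT2G47050 held in each of 13 alternatives. The other 3 lost theirs with no low-signal filter and without ago4-1 replicate 1, and AT2G01610 and AT1G70720 also without the variance trend (limma adjusted p up to 0.0999 for AT2G01610, 0.117 for AT4G02250 and 0.132 for AT1G70720 over their alternatives). AT1G70720 lost its call without ago4-1 replicate 2 as well. Over the 33 inhibitor-family loci with no filter, 15 (45.5%) lay wholly higher and 5 (15.2%) wholly lower in ago4-1. The shares over all probe sets were 21.7% and 25.4%, and the median log2 difference of the 33 loci was 0.25.

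The other families gave few calls. Of 15 tested methylesterases 0 passed, 3 of them having an unadjusted p under 0.05. Among the 42 with a probe set, 7 (16.7%) lay wholly higher and 10 (23.8%) wholly lower in ago4-1, against 21.7% and 25.4% of all probe sets. Their median log2 difference was 0.05. The methylesterases with the smallest p were AT3G10720 at -0.66 (limma adjusted p = 0.0703), AT5G64640 at -0.59, PME61 (AT3G59010) at -0.60 and AT3G05620 at -0.49, all below 0. The 3 pollen methylesterases were above 2, but they were set apart with their differences known, so that gap is partly built in. Of 19 tested polygalacturonases, AT1G60590 fell, at 806.9 and 568.2 in ago4-1 against 2040 and 1370 in wild type (log2 difference -1.28, SE 0.23, limma adjusted p = 0.0212). The next by p, AT3G06770 at -0.31, AT3G62110 at 0.26 and AT4G23820 at 0.22, did not pass. Of 16 tested pectate lyases, AT3G09540 fell, at 325.6 and 310.0 in ago4-1 against 640.1 and 535.8 in wild type (log2 difference -0.85, SE 0.17, limma adjusted p = 0.0346). AT1G67750 at 0.63 (limma adjusted p = 0.0521), AT3G53190 at 0.48 and AT3G55140 at 0.46 did not pass. AT1G67750 passed in 4 of 13 alternatives, namely a pseudocount of 64, robust moderation, the replicate number as a block and leaving out ago4-1 replicate 2 (limma adjusted p from 0.00115 to 0.173 over the 13). With the block alone AT3G53190 passed, as did the methylesterases AT3G10720 and PME61, which were lower in ago4-1. The calls of AT1G60590 and AT3G09540 were lost without the low-signal filter, without the variance trend and without ago4-1 replicate 2, and that of AT3G09540 also without ago4-1 replicate 1 or wild type replicate 1 (limma adjusted p up to 0.128 for AT1G60590 and 0.203 for AT3G09540).

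**Figure D3:**
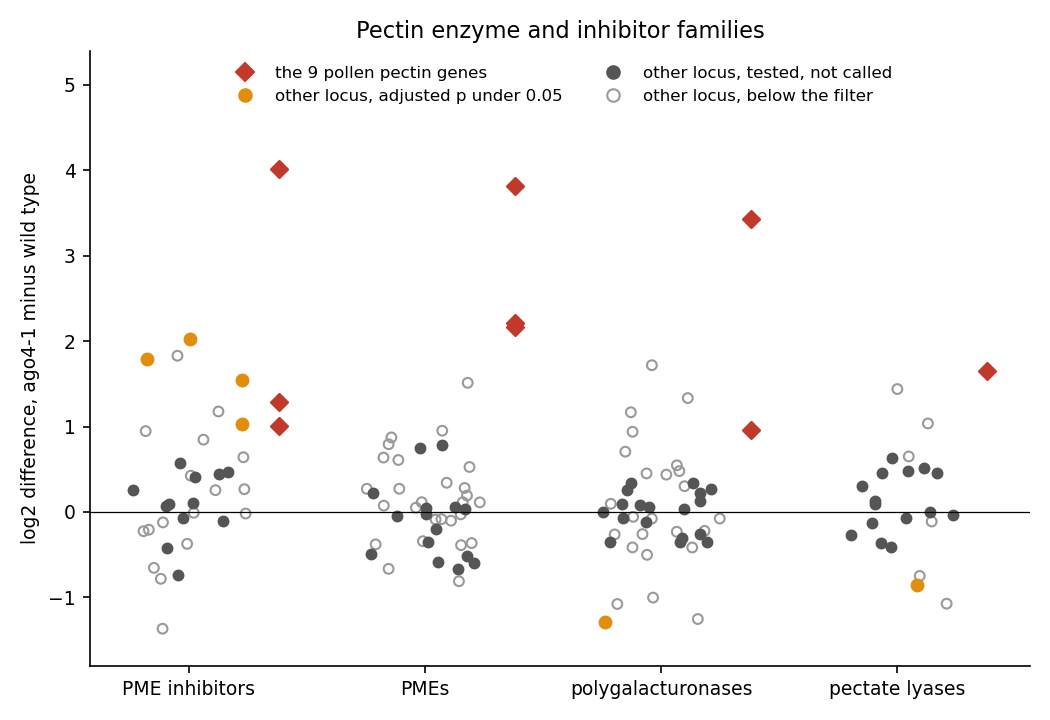
Log2 difference, ago4-1 minus wild type, of every locus with a probe set in the 4 families; PME stands for pectin methylesterase, diamonds are the 9 pollen pectin genes, filled circles the other loci that were tested and open circles those below the limit on low signals. The other loci have medians of 0.25, 0.05, -0.00 and 0.05 from left to right, near 0 in each family but the inhibitors. The 6 called ones are 4 inhibitors above 0 and 1 polygalacturonase and 1 pectate lyase below 0.

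A list of 23 further pectin genes known from pollen, made after earlier results of these data were seen, gave 12 with a probe set. Their wild-type signals were mostly near the floor, and 2 passed the limit on low signals, of which AT2G47050 rose as given above. The other, the methylesterase AT5G49180, was at 33.8 and 123.2 in ago4-1, against 25.9 and 39.9 in wild type, and its genotypes overlapped (log2 difference 0.78, limma adjusted p = 0.451). It too passed the limit only through ago4-1. With no filter, 7 of the 12 lay wholly higher in ago4-1 and 0 wholly lower, against 21.7% and 25.4% of all probe sets, 10 were above 0, and the median log2 difference was 0.79. The methylesterase AT3G05610 was at 71.1 and 22.9 in ago4-1 and at 6.47 and 2.54 in wild type. The pectate lyase AT5G15110 was at 34.3 and 52.5 in ago4-1 and at 6.47 and 4.85 in wild type. The polygalacturonase AT2G23900 was at 62.4 and 63.7 in ago4-1 and at 26.7 and 7.06 in wild type. These 3 had the next largest differences of the list after AT2G47050, and were named after their values were seen. AT5G27870, of the methylesterases, went the other way, at 1.56 and 18.4 in ago4-1 and at 9.80 and 22.8 in wild type, with overlapping genotypes. Without these 12 genes, 33 of the remaining 128 loci of the families (25.8%) lay wholly higher in ago4-1 and 28 (21.9%) wholly lower.

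Markers of pollen outside the pectin genes were read beside these values. Of 34 markers of late pollen and pollen tubes, 15 had a probe set, 8 lay wholly higher in ago4-1 and 3 wholly lower, against 21.7% and 25.4% of all probe sets, with a median log2 difference of 0.45. Of the 7 tested, 3 rose and 0 fell, against 2.14% and 1.92% of all probe sets tested. The marker list was made with earlier results of these data known, so these shares are a description and no test of pollen markers. AT3G28750 was at 354.1 and 341.6 in ago4-1, against 43.9 and 24.5 in wild type (log2 difference 2.88, limma adjusted p = 0.00154), and with a wild-type mean below the limit on low signals it entered the test only through ago4-1. AT5G45880, of the Ole e 1 family of pollen proteins, was at 453.8 and 379.3 in ago4-1, against 113.6 and 88.4 in wild type (log2 difference 1.89, limma adjusted p = 0.00359). AT1G52680 was at 146.8 and 152.2 in ago4-1, against 49.8 and 43.5 in wild type (log2 difference 1.40, limma adjusted p = 0.0347). That last call was lost with no low-signal filter and without either ago4-1 array (limma adjusted p up to 0.117).

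Not every pollen marker was higher in ago4-1. The actin gene ACT11 was at 516.2 and 448.3 in ago4-1 and at 531.5 and 669.3 in wild type, a log2 difference of -0.30 that did not pass. ANX1, a receptor kinase of the pollen tube tip, was at 2.52 and 2.22 in ago4-1 and at 7.13 and 3.27 in wild type. The signals of the 15 markers summed to 2920 and 2456 on the ago4-1 arrays and to 1516 and 1678 on the wild-type arrays, and 0 of them were listed at 0. The annotation linked a probe set to 4 of 25 tapetum and early anther markers. Their sums were 2639 and 1920 in ago4-1 and 1300 and 1557 in wild type. A9 made up most of each sum. The other 3 overlapped between genotypes, with log2 differences of 0.01 for AT1G75920, 0.11 for SPL and -0.36 for AMS. A9 rose by 0.79 (limma adjusted p = 0.0402), a call lost without the low-signal filter, without the variance trend, and without ago4-1 replicate 1 or wild type replicate 1 (limma adjusted p up to 0.164), while AMS, a regulator of the tapetum, was at 33.0 and 69.7 in ago4-1 and at 65.5 and 69.2 in wild type. Of 13 markers of other floral organs, the annotation linked a probe set to only 1, the nectary sugar exporter SWEET9. The rest of that list was not read, so it gives no view of floral organs as a whole. SWEET9 was at 185.3 and 223.1 in ago4-1, against 26.6 and 44.3 in wild type (limma adjusted p = 0.0100). SWEET9 entered the test only through ago4-1, and its call was lost with no low-signal filter and without ago4-1 replicate 1 (limma adjusted p up to 0.0678). The part that the amount of pollen, anther or flower in the samples has in the differences of the pectin genes was not tested.

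**Figure D4:**
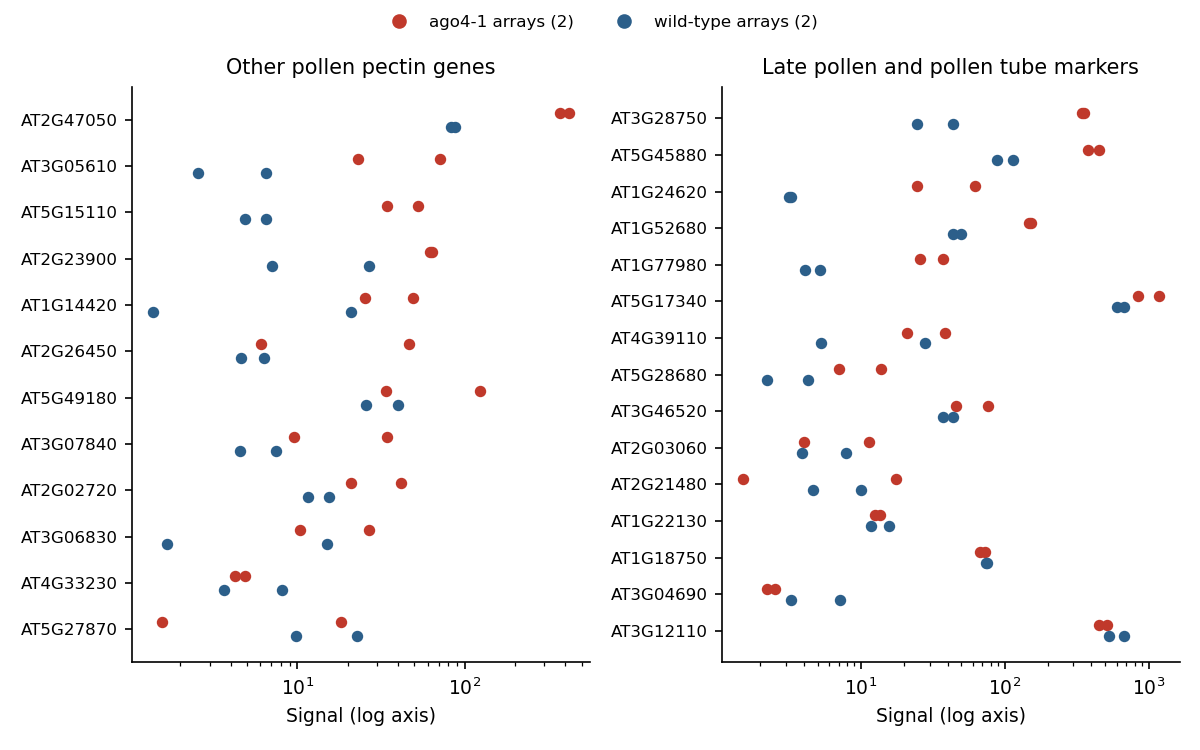
Signals (log axis) of 12 further pectin genes of pollen (left) and of 15 markers of late pollen and pollen tubes (right), ordered by log2 difference with the largest on top; red points are the ago4-1 arrays and blue points the wild-type arrays, drawn just above and below each line. The red points lie wholly to the right of the blue ones for 7 of 12 genes on the left and 8 of 15 on the right.

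The profile of the 9 genes can be summarised by their median log2(signal + 16) on each array, which was 7.71 and 7.78 in ago4-1 and 5.08 and 5.05 in wild type. Of 13427 other probe sets paired with a single locus, the 5 nearest to that profile, by root mean square distance in log2 units over the 4 arrays, were LCR72 at 0.36, AT1G29140 at 0.43, SWEET9 at 0.47, AT3G02480 at 0.48 and AT4G02250 at 0.49. These distances take in the level of each signal as well as its change between arrays, and levels depend on the probes. LCR72, which encodes a small cysteine-rich peptide, was at 162.6 and 129.4 in ago4-1 and at 25.2 and 21.3 in wild type. The 9 genes themselves lay 0.53 (AT3G07820) to 1.12 (AT3G01270) from their median profile, farther than these 5. They were picked for their likeness, so their differences carry no test here, and 4 arrays give few points on which to be alike.

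By their locus names the 9 genes lie on 4 chromosomes, with 1 on chromosome 1, 3 on chromosome 3, 1 on chromosome 4 and 4 on chromosome 5. In RefSeq's gene order (assembly TAIR10.1, used here only for the order of genes), the 3 nearest genes with a probe set on each side of the 9 came to 48 other genes. Of these, 32 were tested, 2 rose and 0 fell, which is 6.25% called against 4.06% of all probe sets tested. With no filter 24 of the 48 (50%) lay wholly higher in ago4-1 and 5 (10.4%) wholly lower, against 21.7% and 25.4% of all probe sets, with a median log2 difference of 0.21. The set is small and neighbours were up to 27 genes away. Loci in between were passed over where the annotation links no probe set to them alone, though the array may hold one.

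Beside the pectate lyase AT3G01270, its neighbours AT3G01240 and AT3G01250 differed more than it did. AT3G01240 was at 225.2 and 196.4 in ago4-1, against 3.70 and 2.77 in wild type, with a log2 difference of 3.56 (limma adjusted p = 0.00281), and passed the limit on low signals only through ago4-1. AT3G01250 was at 103.3 and 92.6 in ago4-1, against 4.13 and 2.599 in wild type, with a log2 difference of 2.56, and was below the limit on low signals. AT3G01260, which lies between them and the lyase, was at 1.40 and 13.3 in ago4-1 and at 24.8 and 3.54 in wild type, with overlapping genotypes. The other neighbour that rose, AT3G17020, was at 3848 and 4002 in ago4-1, against 2581 and 2630 in wild type (log2 difference 0.59, limma adjusted p = 0.0323), and its call was lost without the low-signal filter, without the variance trend, and without ago4-1 replicate 1 or either wild-type array (limma adjusted p up to 0.167). Next to the polygalacturonase AT3G07820, the family member AT3G07840 was at 34.2 and 9.54 in ago4-1 and at 4.51 and 7.49 in wild type, low on every array. The nearest measured genes of AT5G50030 all lay within 0.35 log2 units of 0.

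**Figure D5:**
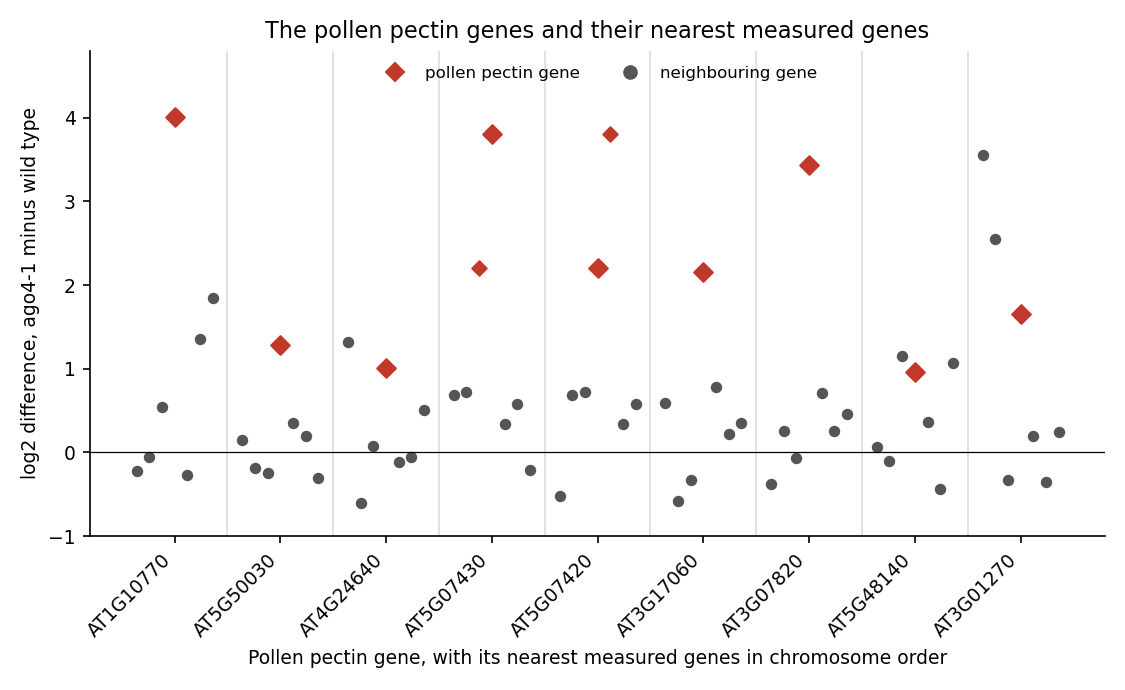
Log2 difference, ago4-1 minus wild type, of each pollen pectin gene (red diamonds) and of the 3 nearest genes with a probe set on each side of it, in chromosome order (grey points); small diamonds mark AT5G07420 and AT5G07430, which count among each other's nearest measured genes. Most grey points lie between -0.6 and 1.4, and the highest, at 3.56, is AT3G01240 beside the pectate lyase AT3G01270.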

How the data were processed

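RNA was extracted with Trizol, biotin-labelled and run on ATH1 arrays, as the labels' protocols state. The authors deposited a linear signal intensity for each probe set of each array, from GCOS (per the submitters' processing notes; version not given in the sources used here). The trimmed mean was 500.1 on every array, so the signals were used without further normalization.

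The table has 22810 probe sets, of which 64 are controls and were not used. Of the others, the annotation gives 13513 a single gene and 503 several genes, and does not list 8730. Gene IDs linked 13436 to RefSeq loci (TAIR10.1). Signals were transformed to log2(signal + 16). After a filter at the 30th percentile of the mean, genotypes were compared in R 4.3.3 with limma 3.58.1 (linear fit, empirical Bayes with mean-dependent prior variance, two-sided; 2 residual degrees of freedom, median prior 6.72) and p-values were adjusted by Benjamini-Hochberg, with 0.05 as the threshold. The procedure was tested on simulated data whose spread was limma's own moderated SD of each probe set, a choice that favours the method, and even there the share of false calls was above the nominal rate; a first simulation, with raw replicate SDs shuffled among probe sets, recovered too few changes to pass the bound set for it. Where a locus had several probe sets, the one with the highest mean was used.

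The 9 genes and the lists were chosen with earlier results of these data known. Genes named were the 9, up to 4 of each pectin list with the smallest p, and the 5 nearest profiles, and called markers and neighbours were named after their values were seen. Nothing says that plants of a replicate were grown apart, so p-values measure only the spread between these samples, and the number of arrays limits their precision. Alternatives covered normalization, pseudocount, filter, variance prior, a replicate block and each array left out.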

Additional observations from a re-analysis of the deposited data

How the results depend on the processing

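Of 81 values of the 9 genes under 9 alternatives each, 66 moved by less than the spread between replicates, 15 moved by more and 0 changed sign. All 15 moved with a pseudocount of 1 or 64. Leaving out 1 array or adding the replicate block could not move a value beyond that spread, by construction. Nor could either change a sign, since the genotypes overlapped for none of these genes. The 66 are therefore not a measure of robustness. The median log2 difference of the 9 genes was 3.97 with a pseudocount of 1, 1.045 with one of 64 and 2.21 with arrays centred on their medians, and 2.04 to 2.27 with 1 array left out. That of the 12 further pectin genes of pollen was 1.504 with a pseudocount of 1 and 0.39 with one of 64, and 0.68 (without wild type replicate 1) to 1.14 (without ago4-1 replicate 1) with 1 array left out. Signals near the floor make these medians depend on the pseudocount by construction. The 6 calls in the other pectin genes became 1 without the low-signal filter and 2 without the variance trend, and 2 (without ago4-1 replicate 1) to 6 with 1 array left out. Over all probe sets the 647 calls became 140 without the low-signal filter and 93 without the variance trend, and with 1 array left out from 284 (ago4-1 replicate 1 omitted) up to 1009 (ago4-1 replicate 2 omitted). The cause was not tested. With the replicate number as a block there were 2409 calls over all probe sets and 14 in the pectin families. Deviations of arrays with the same number correlated at 0.166, with 2 pairs only, and no label says that a number marks a shared batch. Where a genotype is left with 1 array, its spread is taken from the other genotype.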
